A study of Mus musculus with 15 samples.

Results

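This is an account of 42 mouse genes that run chromosome segregation and cell division, comprising mitotic kinases, the cyclins and phosphatases that drive CDK1, the chromosomal passenger complex, the spindle checkpoint, the centromere and kinetochore, spindle motors and the cytokinesis machinery. They were chosen by gene symbol and not by a measured value, though with earlier results of these data known. The choice was from 26509 genes listed in either of 2 count tables, and all 42 were present and passed the count filter in both. The study had already reported cell cycle gene sets as upregulated in cultures lacking *Prom1*, naming *Aurka*, *Plk1* and *Cdk1* among others. RNA-seq was analysed in 9 libraries of mRPE, an immortalised mouse retinal pigment epithelium (RPE) culture, and in 6 libraries of mouse RPE/choroid. The RPE is the pigmented layer behind the photoreceptors, and the study asked what loss of *Prom1*, which encodes a cholesterol-binding membrane glycoprotein, does to it.

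The mRPE libraries fall into WT (n = 4), the *Prom1*-edited line labelled Prom1KO 22 (KO22, n = 3) and the line labelled Prom1KO 26 (KO26, n = 2). All mRPE derive from pooled young adult C57/BL6J mice and were immortalised with lentiviral HPV E6/E7, the viral proteins that inactivate p53 and the retinoblastoma protein, and editing was done in Cas9-expressing mRPE with a guide RNA to exon 5 of *Prom1*, with a scrambled guide as the study's control. Each edited line is a single line, so that line and edit cannot be told apart. The RPE/choroid groups are WT (n = 3) and Prom1_KO (n = 3), the latter from *Prom1* fl/fl crossed with RPE65-Cre and gavaged with tamoxifen, with recombination aimed at the RPE alone, while choroidal cells keep the gene. The study's methods give an age only for its mice as a whole, young adults, with none for these groups, and the tamoxifen and Cre status of their WT is not given in the sources used here.

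Mitosis is entered when CDK1 bound to cyclin A or B is freed from the inhibitory phosphate that WEE1 adds and CDC25 removes. Aurora, Polo and TTK kinases then build the spindle and attach chromosomes to it through kinetochores, and the checkpoint proteins MAD2, BUBR1 and BUB3 hold back APC/C-CDC20 until every kinetochore is attached, whereupon securin and cyclin B are destroyed, separase cuts cohesin and the central spindle directs cytokinesis. The mature RPE is a non-dividing epithelium, whereas immortalised RPE cultures divide. Most of these genes are transcribed in G2 and M phase through a cell cycle homology region (CHR) near the transcript start, often with upstream CCAAT boxes, bound by the DREAM complex in quiescent cells and by B-MYB and FOXM1 complexes in dividing ones.

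RefSeq promoter windows (GRCm38.p6, 250 bases before to 50 after the transcript start) were matched to 34 of the 42 genes. Windows of the 3 genes with the largest and the 3 with the smallest log2 fold change of KO22 against WT among these 34 are printed below, from 150 bases before to 50 after the start, because they set the CHR and CCAAT letters beside the range of responses. Capitals mark matches, on either strand, to the CHR forms TTTGAA and TTCGAA, to CCAAT, and to the E2F forms TTTCCCGC, TTTCGCGC, TTTGCCGC and TTTGGCGC.
Ttk (log2 fold change 3.16, chr9:83834539-83834738, plus strand): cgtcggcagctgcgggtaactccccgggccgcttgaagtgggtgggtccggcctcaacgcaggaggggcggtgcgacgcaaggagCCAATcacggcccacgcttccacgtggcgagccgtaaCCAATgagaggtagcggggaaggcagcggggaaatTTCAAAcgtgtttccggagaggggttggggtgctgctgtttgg
Espl1 (log2 fold change 2.88, chr15:102296143-102296342, plus strand): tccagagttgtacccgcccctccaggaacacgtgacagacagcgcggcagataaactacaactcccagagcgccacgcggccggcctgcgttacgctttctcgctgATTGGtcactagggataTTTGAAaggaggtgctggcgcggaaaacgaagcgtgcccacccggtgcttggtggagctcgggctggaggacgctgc
Cdc20 (log2 fold change 2.78, chr4:118437294-118437493, minus strand): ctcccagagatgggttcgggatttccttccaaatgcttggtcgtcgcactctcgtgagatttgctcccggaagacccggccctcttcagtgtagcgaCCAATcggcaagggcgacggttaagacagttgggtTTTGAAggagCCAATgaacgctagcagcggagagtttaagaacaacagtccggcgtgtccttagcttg
Pttg1 (log2 fold change 0.22, chr11:43425932-43426131, minus strand): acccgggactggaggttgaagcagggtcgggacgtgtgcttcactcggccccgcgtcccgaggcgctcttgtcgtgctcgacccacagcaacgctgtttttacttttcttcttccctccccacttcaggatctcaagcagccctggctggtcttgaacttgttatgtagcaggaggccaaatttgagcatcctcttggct
Bub3 (log2 fold change 1.11, chr7:131560220-131560419, plus strand): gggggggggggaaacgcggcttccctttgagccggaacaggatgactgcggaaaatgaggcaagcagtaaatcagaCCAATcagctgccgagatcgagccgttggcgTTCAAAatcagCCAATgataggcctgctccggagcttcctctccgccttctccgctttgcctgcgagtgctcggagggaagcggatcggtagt
Spc25 (log2 fold change 1.11, chr2:69206164-69206363, minus strand): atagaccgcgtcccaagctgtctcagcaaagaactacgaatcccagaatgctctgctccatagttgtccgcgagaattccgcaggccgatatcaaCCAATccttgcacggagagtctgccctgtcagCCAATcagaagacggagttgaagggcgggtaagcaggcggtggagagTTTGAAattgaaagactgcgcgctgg

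The CHR forms were found in 26 of the 34 windows (76.5%), against 19.4% of 27025 windows taken as 1 for each gene. Within 60 bases before to 50 after the start the shares were 73.5% and 5.9%, CCAAT was found in 73.5% against 37.9%, and 2 or more CCAAT in 47.1% against 12.2%. The E2F letters were found in 1 of the 34 (2.9%, *Cdk1*), against 2.3%. *Ttk*, *Espl1* and *Cdc20*, with the largest fold changes, each held a CHR and a CCAAT box. *Bub3* and *Spc25*, among the smallest, held both as well, and *Pttg1*, which encodes securin, held neither in this window, nor did *Birc5*, *Nusap1*, *Cit*, *Mad2l1* or *Nuf2*, whose log2 fold changes were 2.29, 2.28, 1.55, 1.49 and 1.33. *Wee1*, with the fold change next above that of *Pttg1*, was not matched to a window. In KO22 the median log2 fold change was 2.30 for the 26 genes with a CHR form and 1.79 for the 8 without, given as a description. A match gives letters and not occupancy.

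**Figure D1:**
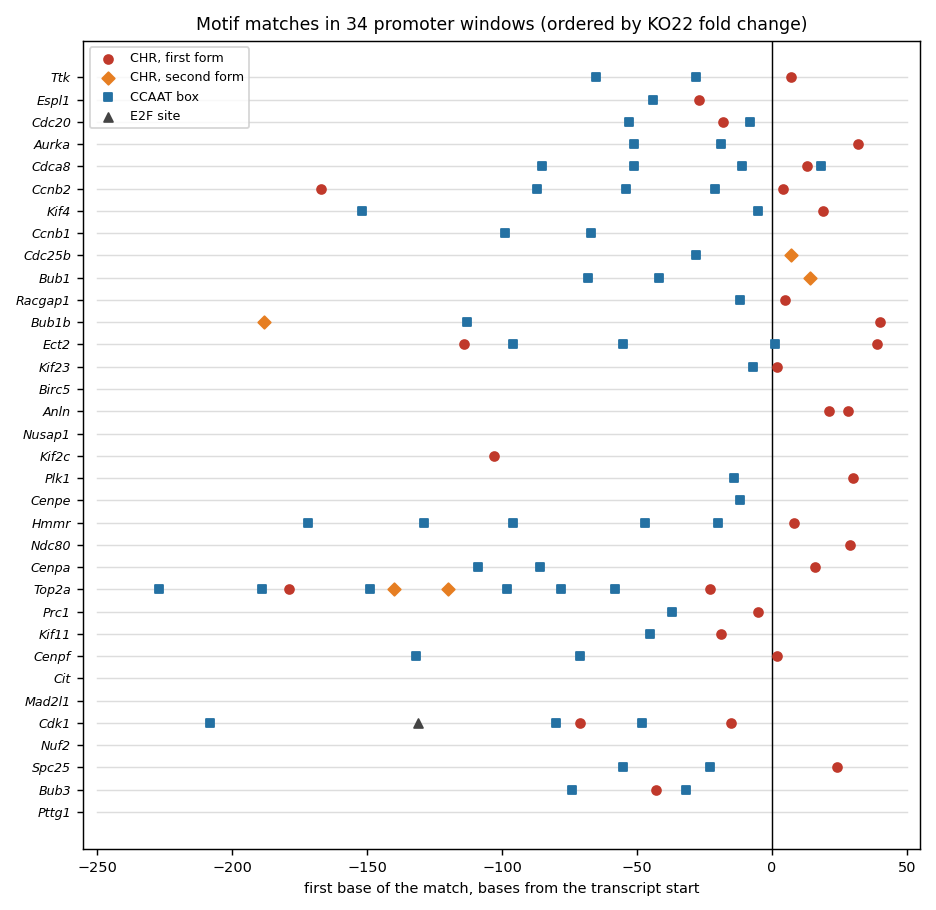
Positions of motif matches in 34 promoter windows, 1 line a gene, ordered from the largest (top) to the smallest (bottom) log2 fold change of KO22 against WT. The x axis is the first base of the match relative to the transcript start, in bases. CHR matches (red circles, first form, and orange diamonds, second form) lie mostly between 60 bases before and 50 after the start, with CCAAT boxes (blue squares) before them, in genes at the top and lower down alike, and 6 genes, from *Birc5* and *Nusap1* to *Pttg1* at the foot, have no match.

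Library totals lay between 8076188 and 27537863 counts in mRPE and between 48154444 and 61766179 in RPE/choroid. The 42 genes had 36 to 28979 counts in each mRPE library and 0 to 1145 in each RPE/choroid library. Library names divide mRPE into set 8995 (1 library each of WT, KO22 and KO26, each numbered replicate 1 here) and set 9262 (3 WT, 2 KO22, 1 KO26), which the study treats as sequencing batches. In mRPE, replicate pairs of 1 group differed more across the sets (chi-square per degree of freedom 42.1 to 79.6) than within set 9262 (4.8 to 11.8). In RPE/choroid the value was 33.45 to 68.53 among WT pairs and 16.33 for Prom1_KO replicates 1 and 2. Prom1_KO replicate 3 stood apart, at 231.85 against replicate 1 and 246.51 against replicate 2. The study left both KO26 libraries out as outliers, and they are kept here. *Prom1* itself was not analysed here in mRPE, so that the edit was not checked in the RNA of these libraries. The RPE label holds weakly in culture, where 4 of 12 listed RPE markers (*Best1*, *Rdh5*, *Mitf*, *Pmel*) summed to 8.17 to 40.0 CPM (counts scaled to library size) against 5565 to 21790 CPM for 5 of 6 fibroblast markers, and the other 8 RPE markers were not analysed here. Nothing in the labels says that replicates are separate cultures, so p-values measure the spread between these libraries.

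In KO22 against WT, 38 of the 42 mitotic genes were higher and 0 lower past both limits of the study (adjusted p under 0.05, and over 1.2 up or down on the log2 scale), from edgeR's quasi-likelihood test with Benjamini-Hochberg adjustment over 20455 genes with the library set as a term. Of all genes tested, 11.4% were higher and 13.8% lower by the same limits. The median log2 fold change was 2.16 over the 42, equal to 4.48-fold, and -0.03 over all genes tested. The range ran from 0.22 (*Pttg1*) to 3.16 (*Ttk*). By adjusted p alone 41 were higher, where 26.9% of all genes were, and in 40 the lowest KO22 library lay above the highest WT library, where 24.8% of all genes did so. Summed over the 42, WT libraries held 2009.9, 1635, 1541 and 1555 CPM (TMM-scaled), KO22 libraries 4851, 7594 and 7236, and KO26 libraries 4153 and 3471. WT is lowest throughout, the KO22 library of set 8995 lies between KO26 and the other KO22 libraries, and no KO22 or KO26 sum overlaps WT.

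**Figure D2:**
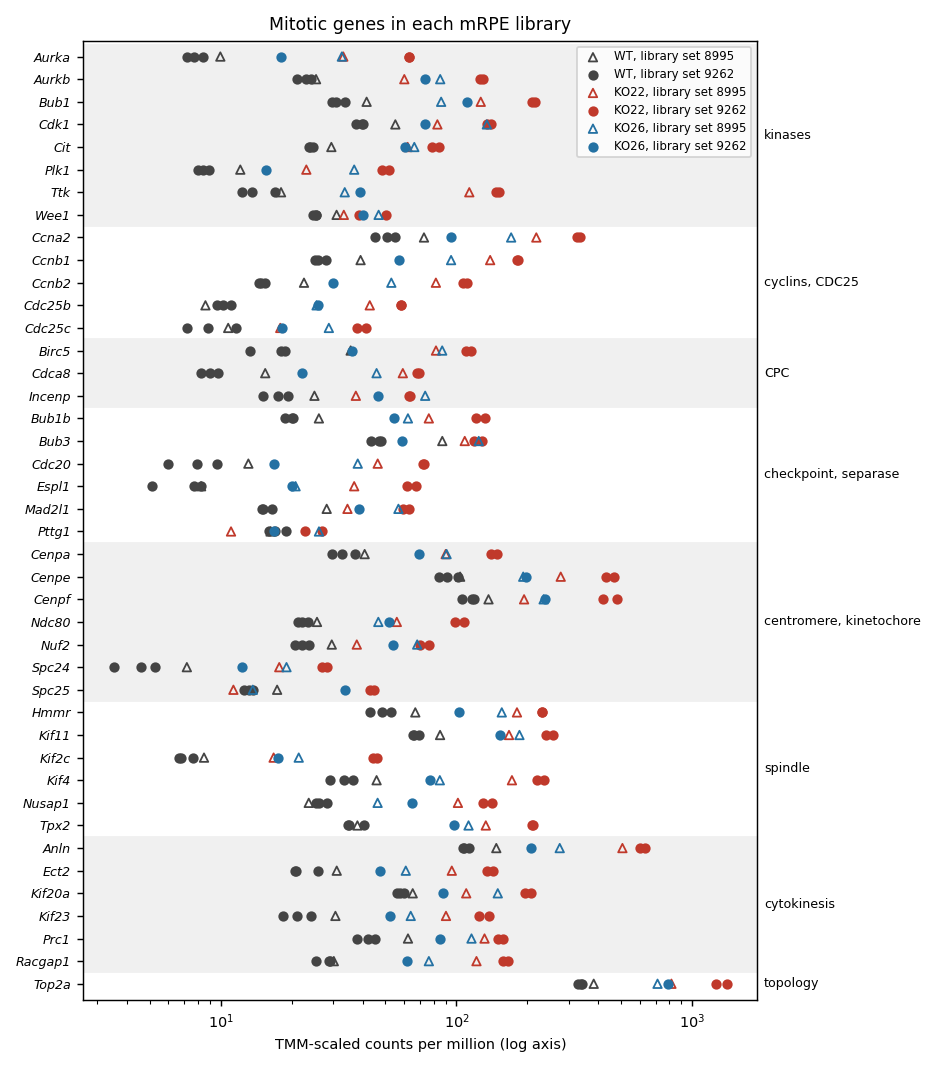
TMM-scaled CPM (x axis, log scale) of the 42 genes in each mRPE library, with triangles for set 8995, circles for set 9262, grey for WT, red for KO22 and blue for KO26. Red symbols lie right of grey in all rows but *Pttg1* and *Spc25*, red triangles lie left of red circles, and blue symbols lie mostly between grey and red circles.

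Of the 8 mitotic kinases, 7 were higher in KO22, and the median over the 8 was 2.11 on the log2 scale. *Ttk* (ENSMUSG00000038379, chromosome 9, 83703392 to 83755037, plus strand, mm39) encodes the MPS1 kinase that starts checkpoint signalling at unattached kinetochores. It held 18.04, 17.0, 12.4 and 13.6 CPM in WT and 113, 151 and 147 CPM in KO22, so that the groups lie far apart, with a log2 fold change of 3.16 ± 0.17 (SE) or 8.93-fold (edgeR adjusted p = 1.22e-06). *Aurka*, the kinase of spindle poles, held 9.97, 7.68, 8.44 and 7.18 CPM in WT and 33.1, 62.7 and 62.9 CPM in KO22 (2.64 ± 0.23 (SE), edgeR adjusted p = 1.61e-05). *Bub1*, which places the checkpoint and shugoshin at centromeres, held 41.6, 33.7, 30.8 and 29.7 CPM in WT and 127, 215 and 209.5 CPM in KO22 (2.42 ± 0.20 (SE), edgeR adjusted p = 1.31e-05). In all 3 the KO22 library of set 8995 is the lowest of KO22 and still above every WT library.

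*Aurkb*, the kinase of the passenger complex, rose by 2.13 on the log2 scale, *Plk1*, which acts at centrosomes and kinetochores, by 2.09, *Cit*, the citron kinase of the midbody, by 1.55, and *Cdk1*, the master kinase of mitotic entry, by 1.46. *Cdk1* counts were 55.1, 39.8, 37.5 and 40.2 CPM in WT and 83.0, 135 and 139.5 CPM in KO22. Its inhibitor *Wee1* held 31.0, 25.4, 25.3 and 24.6 CPM in WT and 33.3, 50.2 and 38.5 CPM in KO22, groups that do not overlap but lie close, with a log2 fold change of 0.61 ± 0.16 (SE) (edgeR adjusted p = 0.0103), under the fold limit.

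All 5 cyclins and CDK1 phosphatases were higher in KO22, with log2 fold changes of 1.71 to 2.56. *Ccnb1*, cyclin B1, held 39.2, 25.8, 25.0 and 28.0 CPM in WT and 139, 181 and 182 CPM in KO22 (2.50 ± 0.17 (SE), edgeR adjusted p = 5.21e-06). *Ccna2*, cyclin A2, which acts in S phase and G2, held 72.8, 54.98, 45.4 and 50.8 CPM in WT and 218, 335 and 326 CPM in KO22 (2.38 ± 0.20 (SE), edgeR adjusted p = 1.47e-05). *Cdc25b*, the phosphatase that first activates CDK1, held 8.62, 11.04, 10.2 and 9.62 CPM in WT and 42.9, 58.2 and 58.2 CPM in KO22, and its adjusted p of 7.45e-07 (edgeR) equalled that of *Nusap1* as the lowest among the 42. *Ccnb2*, cyclin B2, and *Cdc25c* rose by 2.56 and 1.71. The WT values of the group are tight beside the gap to KO22.

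The 3 genes of the chromosomal passenger complex, which corrects faulty attachments with AURKB, were all higher. *Cdca8*, borealin, held 15.5, 8.98, 8.25 and 9.76 CPM in WT and 59.2, 69.3 and 68.0 CPM in KO22 (2.63 ± 0.19 (SE), edgeR adjusted p = 5.6e-06). *Birc5*, survivin, was the least even in WT, at 35.6, 18.03, 13.4 and 18.8 CPM, with the set 8995 library high, and held 81.9, 109.8 and 115 CPM in KO22 (2.29 ± 0.27 (SE), edgeR adjusted p = 9.45e-05). The scaffold *Incenp* rose by 1.49.

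Among the 6 genes of the checkpoint, APC/C activation and separase, 4 were higher in KO22. *Espl1*, separase, held 8.26, 7.68, 5.11 and 8.25 CPM in WT and 36.8, 61.4 and 67.1 CPM in KO22 (2.88 ± 0.22 (SE), edgeR adjusted p = 9.61e-06). *Cdc20*, the activator of the APC/C, held 13.1, 9.67, 5.99 and 7.97 CPM in WT and 46.4, 72.1 and 72.6 CPM in KO22 (2.78 ± 0.26 (SE), edgeR adjusted p = 2.5e-05). After *Ttk* these 2 had the largest log2 fold changes among the 42. *Bub1b*, BUBR1, rose by 2.36 and *Mad2l1*, MAD2, by 1.49.

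The other 2 of that group did not pass. *Pttg1*, securin, the inhibitor that holds separase, held 16.3, 17.0, 16.1 and 18.9 CPM in WT and 11.1, 26.9 and 22.9 CPM in KO22, so that KO22 lay on both sides of WT, and its log2 fold change was 0.22 ± 0.20 (SE) (edgeR adjusted p = 0.387). *Bub3*, which loads BUB1 and BUBR1 onto kinetochores, held 87.1, 43.4, 46.7 and 47.7 CPM in WT and 108, 119 and 128 CPM in KO22, with 1 high WT library, and its log2 fold change of 1.11 ± 0.19 (SE) was under the fold limit (edgeR adjusted p = 0.000994). Separase and its inhibitor thus had log2 fold changes of 2.88 and 0.22 in the same libraries.

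Of 7 centromere and kinetochore genes, 6 were higher in KO22, with a median of 1.84 over the 7. *Cenpe*, a kinesin that carries chromosomes to the spindle equator, held 104, 101, 91.4 and 84.5 CPM in WT and 277, 464 and 429 CPM in KO22 (2.02 ± 0.17 (SE), edgeR adjusted p = 1.33e-05). *Cenpa*, the centromeric histone, held 40.8, 37.1, 29.6 and 32.7 CPM in WT and 90.0, 139.9 and 149 CPM in KO22 (1.84 ± 0.18 (SE), edgeR adjusted p = 3.76e-05). The NDC80 complex, which binds microtubules, has 4 subunits, all among the 42. *Spc24* rose by 2.21, *Ndc80* by 1.89 and *Nuf2* by 1.33. *Spc25* held 17.4, 12.5, 13.2 and 13.7 CPM in WT and 11.3, 44.5 and 43.0 CPM in KO22, with the set 8995 library under every WT library and the other 2 far above, and its log2 fold change of 1.11 ± 0.36 (SE) missed the fold limit (edgeR adjusted p = 0.0277). *Cenpf*, a large kinetochore protein of G2 and M, rose by 1.56.

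All 6 spindle genes were higher, with log2 fold changes from 1.62 for *Kif11*, the motor that separates spindle poles, to 2.53 for *Kif4*, a chromokinesin. *Kif4* held 45.9, 33.5, 36.4 and 29.1 CPM in WT and 172, 235 and 219 CPM in KO22 (edgeR adjusted p = 4.6e-06). *Nusap1*, which bundles microtubules near chromatin, held 23.6, 28.3, 26.0 and 25.3 CPM in WT and 101, 142 and 129.6 CPM in KO22 (2.28 ± 0.11 (SE), edgeR adjusted p = 7.45e-07). *Tpx2*, the activator of Aurora A, rose by 2.31, *Kif2c*, the depolymerising kinesin MCAK, by 2.20, and *Hmmr*, a spindle-assembly factor, by 2.01.

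All 6 genes of the central spindle and cytokinesis were higher, with log2 fold changes of 1.49 to 2.38. *Anln*, anillin, which scaffolds the contractile ring, held 148, 107, 106 and 113 CPM in WT and 506, 631 and 599.7 CPM in KO22 (2.29 ± 0.15 (SE), edgeR adjusted p = 3.37e-06). *Racgap1* and *Kif23*, the partners in centralspindlin, rose by 2.38 and 2.31, and *Ect2*, the RhoA exchange factor they recruit, by 2.33. *Prc1*, which crosslinks antiparallel microtubules, rose by 1.64 and *Kif20a*, which brings the passenger complex to the midzone, by 1.49. *Top2a*, the topoisomerase that untangles sister chromatids, had the highest CPM of the 42, at 382, 338, 342 and 329 CPM in WT and 816, 1397 and 1257 CPM in KO22 (1.72 ± 0.17 (SE), edgeR adjusted p = 3.43e-05).

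Levels were also taken per kilobase of exon, with all annotated exons of a gene joined as its length. This can exceed the transcript expressed, so places between genes depend in part on the annotation. WT mRPE ran from 38.1 CPM per kb for *Top2a*, 13.7 for *Ccna2* and 11.9 for *Kif20a* down to 0.969 for *Cdc25b* and 0.766 for *Espl1*. KO22 kept *Top2a* (127 CPM per kb) and *Ccna2* (71.7) first, and *Kif20a* moved from place 3 to 10. The level of *Bub1* per kb went from 7.47 to 40.4, from place 10 to 6.

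KO26, the second edited line, was compared with WT in a fit over all 9 mRPE libraries. Here 23 of the 42 were higher and 0 lower past both limits, where 1.21% of 20737 genes were higher and 0.719% lower, and by adjusted p alone 33 were higher, where 2.36% of all genes were. The median log2 fold change was 1.26 over the 42 and 0.03 over all genes, with a range from 0.43 (*Pttg1*) to 1.82 (*Aurkb*). In 39 genes both KO26 libraries lay above every WT library, where 11.9% of all genes did so and 12.8% lay below WT in the same way. The count rested on single libraries: it was 10, 8 and 9 without WT replicate 2, 3 or 4 and 6 without KO26 replicate 1, where the median was 1.07, and the fit of WT and KO26 alone gave 15. KO22 and KO26 share the WT libraries, so these lists are not independent of each other.

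*Aurkb* held 25.4, 24.1, 23.1 and 21.2 CPM in WT and 85.3 and 73.6 CPM in KO26 (1.82 ± 0.25 (SE), edgeR adjusted p = 0.008). *Incenp* held 25.0, 19.4, 15.1 and 17.4 CPM in WT and 73.7 and 46.6 CPM in KO26 (1.60 ± 0.27 (SE), edgeR adjusted p = 0.0148). *Cdc25b* was the most even, at 25.5 and 25.8 CPM (1.45 ± 0.15 (SE), edgeR adjusted p = 0.00241). In these 3 both KO26 libraries lie clear of WT. In other genes they lay further apart. *Ccna2* held 171 and 95.1 CPM and *Plk1* 36.8 and 15.6 CPM, so that *Plk1*, with a log2 fold change of 1.424 ± 0.38 (SE), did not pass (edgeR adjusted p = 0.073). By role, 6 of 8 kinases, 3 of 5 cyclins and phosphatases, 2 of 3 passenger genes, 4 of 6 checkpoint genes, 2 of 7 kinetochore genes, 4 of 6 spindle genes and 2 of 6 cytokinesis genes passed both limits, and *Top2a* (1.15) did not pass the fold limit.

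**Figure D3:**
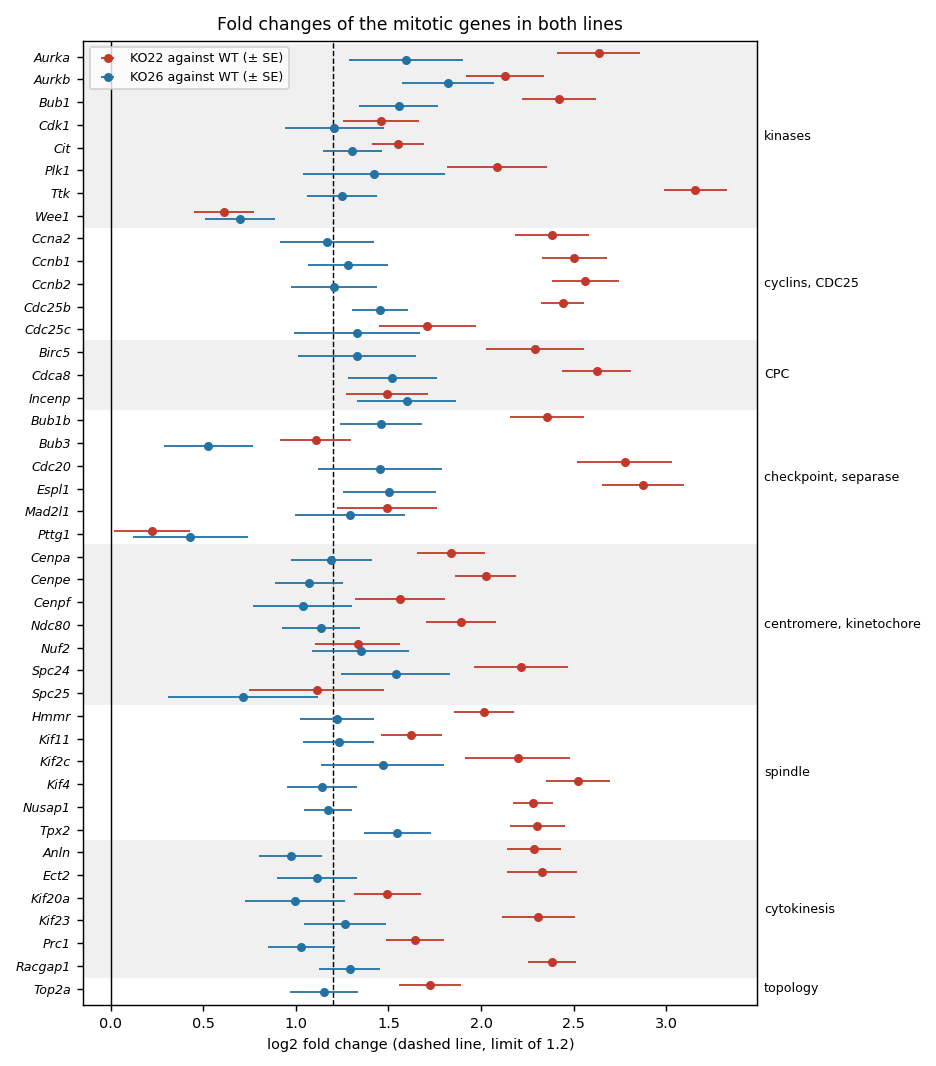
Log2 fold changes (x axis) with standard errors of the 42 genes for KO22 (red) and KO26 (blue) against WT, grouped by role, with the fold limit as a dashed line. All points lie right of 0, red lies beyond blue for most genes, and the lines meet or cross for *Nuf2*, *Incenp*, *Wee1* and *Pttg1*.

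The difference between the lines was tested directly. KO22 was higher than KO26 in 9 of the 42 past both limits (7.56% of all genes) and in 22 by adjusted p alone (16.3%), with 0 lower by either, where 10.7% of all genes were lower past both limits. *Ttk* differed most, at 113, 151 and 147 CPM in KO22 and 33.6 and 39.0 CPM in KO26, with a log2 difference of 1.91 ± 0.21 (SE) (edgeR adjusted p = 9.48e-05). *Anln* held 506, 631 and 599.7 CPM in KO22 and 274 and 207 CPM in KO26 (1.32 ± 0.19 (SE), edgeR adjusted p = 0.000527). No KO26 library reached a KO22 library in either gene. *Incenp* (log2 difference -0.08), *Wee1* (-0.08), *Pttg1* (-0.19) and *Nuf2* (0.00) had differences within their SE of 0.

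The 2 library sets gave different orders of the lines. In set 9262 the mean of the KO22 libraries lay above the KO26 library in all 42 genes, with a median difference of 1.14 on the log2(CPM + 0.5) scale. In set 8995 KO22 lay above KO26 in 23 and below it in 19, with a median of 0.19, from -1.2 (*Pttg1*) to 1.74 (*Ttk*). Shares over all genes were not counted within the sets, so these counts only describe the 42. *Cdk1* held 83.0 CPM in KO22 and 135 CPM in KO26 in set 8995, against 135 and 139.5 CPM in KO22 and 73.9 CPM in KO26 in set 9262. A higher level of the 42 in KO22 than in KO26 rests on set 9262 for the 19 genes. Set 9262 alone gave 16 called between the lines, and leaving out KO22 replicate 1 gave 18, KO26 replicate 1 gave 14 and KO26 replicate 2 gave 4, in place of 9. Set 9262, like either fit without a KO26 replicate, holds 1 KO26 library, which is assumed to vary like the other groups.

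Within the sets, KO22 minus WT was positive in 40 of 42 genes in set 8995 (median 1.24, all but *Pttg1* and *Spc25*) and in 42 of 42 in set 9262 (median 2.45). These counts too have no share over all genes beside them. An interaction term tested whether the KO22 effect differed between sets. It was negative, lower in set 8995, for all 42, and passed the adjusted p limit for 40, where 17.2% of all genes were lower and 9.1% higher. The median was -1.05 over the 42 and -0.14 over all genes. *Spc25* had the largest difference, -2.35 ± 0.21 (SE) (edgeR adjusted p = 1.25e-07), then *Kif2c* with -1.70 ± 0.23 (SE) and *Mad2l1* with -1.68 ± 0.18 (SE). *Cdc25b* (-0.18 ± 0.20 (SE), edgeR adjusted p = 0.539) and *Nusap1* (-0.25 ± 0.17 (SE), edgeR adjusted p = 0.301) did not pass. Set 8995 holds 1 library a group, so the set and these single libraries cannot be told apart, and the spread comes from set 9262.

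For KO26 the same term was negative in 21 of 42, with a median of -0.01 and 0.06 over all genes, and passed for 2 (1 without WT replicate 3 or 4), *Bub1* (-0.77 ± 0.19 (SE), edgeR adjusted p = 0.0263) and *Spc25* (-1.70 ± 0.22 (SE), edgeR adjusted p = 0.000207), where 1.6% of all genes were lower. KO26 has 1 library in each set, so this term sets 1 library against 1 with the spread of the other groups. KO26 minus WT had a median of 1.19 in set 8995 and 1.18 in set 9262 and was positive in 41 of 42 in each, with no share over all genes counted. *Spc25* was the exception in set 8995, where KO26 held 13.7 CPM and WT 17.4 CPM, and *Pttg1* in set 9262. *Spc25* was thus below WT in both lines in set 8995 and above it in both in set 9262.

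**Figure D4:**
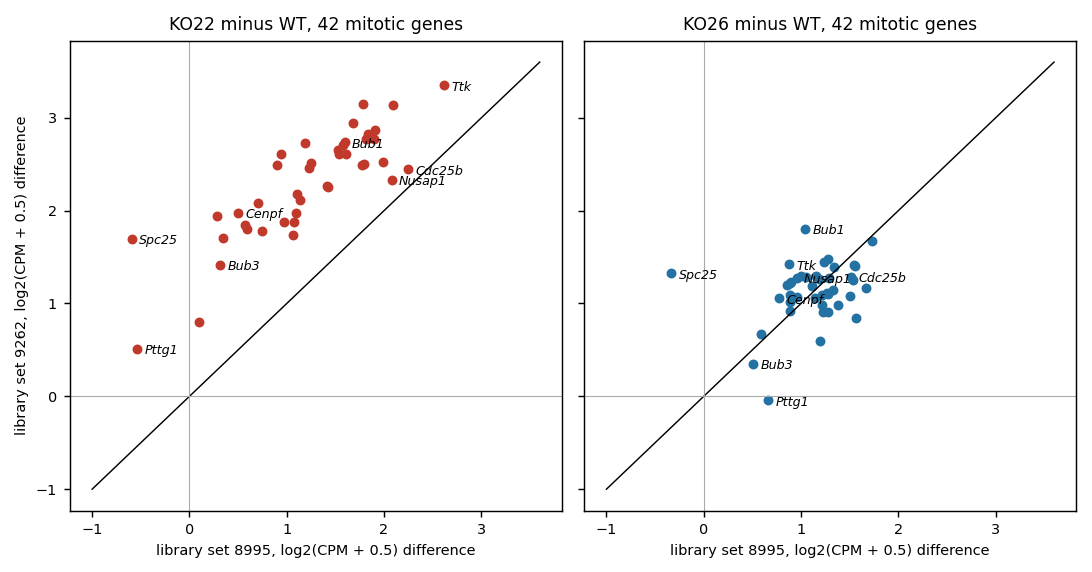
Difference from WT of the 42 genes in library set 8995 (x axis) and set 9262 (y axis), on the log2(CPM + 0.5) scale, for KO22 (left) and KO26 (right), with the line of equal difference. KO22 points lie above the line, with *Cdc25b* and *Nusap1* nearest to it, and KO26 points lie on both sides of it, with *Spc25* apart.

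Other genes of the same pathways, from 7 lists, were counted in the same way in KO22. Past both limits, 22 of 34 further kinetochore genes were higher (median 1.74), 21 of 32 spindle and centrosome genes (1.48), 22 of 32 mitotic regulators (1.68), 9 of 21 condensin and cohesin genes (1.15) and 30 of 34 G1/S and replication genes (2.13), with 0 lower in each. Over all genes tested in KO22 the shares were 11.4% higher and 13.8% lower. Of 18 APC/C genes 1 was higher past both limits, a smaller share than over all genes. It was *Ube2c*, the E2 enzyme that primes APC/C substrates (2.46 ± 0.15 (SE), edgeR adjusted p = 2.58e-06), and the list's median was 0.42. In KO26 the numbers higher were 12, 8, 10, 3, 10 and 1 in the same order, with 0 lower, where 1.21% of all genes were higher and 0.719% lower.

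By name, *Ska3* and *Cenpm* of the kinetochore rose by 2.64 and 2.54 in KO22, the condensin subunits *Smc2* and *Ncaph* by 2.17 and 2.02, and *Stil*, needed for centriole duplication, and *Ckap2l* by 2.35 and 2.19. *Mybl2*, the B-MYB activator of G2/M genes, held 5.17, 4.18, 3.83 and 6.17 CPM in WT and 20.1, 52.9 and 57.9 CPM in KO22 (3.08 ± 0.29 (SE), edgeR adjusted p = 2.92e-05), and *Trip13*, which remodels MAD2, rose by 2.92. The replication factors *Cdc45* and *Mcm5* rose by 3.37 and 3.18. *Foxm1*, the other G2/M activator, rose by 1.67 in KO22 and 1.57 in KO26, and *Mki67*, the proliferation marker, held 376, 317, 306 and 287 CPM in WT, 764, 1193 and 1169 in KO22 and 764 and 607 in KO26.

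The list of CDK inhibitors and pocket proteins, 14 genes, had 4 higher and 3 lower in KO22 and a median of 0.09. The shares over all genes were 11.4% higher and 13.8% lower. *Cdkn2b*, p15, held 0.358, 0.343, 0 and 0.287 CPM in WT, 13.3, 21.0 and 20.8 in KO22 and 0.0464 and 0 in KO26. *Cdkn2a*, the p16 and p19ARF locus, held 0, 0.0686, 0 and 0 CPM in WT and 2.51, 2.41 and 3.49 in KO22, where a count of 0 allows up to 0.119 to 0.295 CPM. *Cdkn1b*, p27, fell by 1.88 on the log2 scale in KO22, where the value in KO26 was -0.07, with 14.5, 19.6 and 16.0 CPM in KO22 beside 61.5, 64.6, 56.4 and 66.0 in WT, and the difference between the lines was -1.81 ± 0.15 (SE) (edgeR adjusted p = 1.82e-05). *Cdkn1c*, p57, was listed at 0 in all 3 KO22 libraries, which allows up to 0.145 to 0.259 CPM, against 1.59, 1.30, 1.47 and 1.00 CPM in WT. *Cdkn1a*, p21, had -0.47 ± 0.11 (SE) in KO22 and 0.71 ± 0.15 (SE) in KO26, and *Trp53* -1.02 ± 0.21 (SE) and 0.48 ± 0.28 (SE), all under the fold limit.

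KO22 differed from WT by chromosome, with median log2 fold changes from -0.54 (chromosome 10) to 0.60 (chromosome 8) among the genes tested. Less its chromosome's median, each of the 42 had a log2 fold change between 0.25 (*Pttg1*) and 2.89 (*Ttk*). Whether copy number differs between the lines was not tested. Markers of some other cell types moved with the groups, while the photoreceptor and erythroid sums overlapped between groups. Endothelial markers (5 of 6 listed) summed to 153 to 236 CPM in WT, 3.49 to 5.40 in KO22 and 56.7 to 74.1 in KO26. Nearly all of it was *Kdr* in WT and KO26, while in KO22 *Kdr* held 0.346, 3.71 and 2.56 CPM. In KO22 *Kdr* and *Tek* were lower past both limits (-6.22 and -2.38), *Plvap* was higher, and *Pecam1* and *Vwf* did not pass. Fibroblast markers (5 of 6) summed to 12800 to 17500 CPM in WT, 5565 to 8668 in KO22 and 19870 to 21790 in KO26. *Col1a1*, *Col1a2* and *Pdgfra* were lower in KO22 past both limits, *Col3a1* (-0.47) was under the fold limit and *Dcn* (0.61) did not pass. In KO26 none passed both limits. There *Col1a1* (0.69), *Col1a2* (0.47) and *Col3a1* (0.56) were positive, and *Pdgfra* (-0.78) and *Dcn* (-0.32) negative. Macrophage markers (2 of 6) summed to 7.61 to 9.33 CPM in WT, 10.2 to 13.8 in KO22 and 9.37 to 10.1 in KO26. Of the 4 RPE markers *Mitf* was higher in KO22 past both limits (1.41), while in KO26 it had -1.54 and did not pass. *Rdh5* had -1.135 in KO22, under the fold limit, and *Best1* (0.80) and *Pmel* (-0.40) did not pass. The part of these in the result was not tested.

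In RPE/choroid the 42 genes were low, at 102 to 154 CPM summed in WT and 120 to 188 CPM in Prom1_KO. Of the 42, 0 were higher and 0 lower past both limits in edgeR's quasi-likelihood test, and 1 had an unadjusted p under 0.05, where 0 of 24926 genes were higher, 0.189% were lower and 2068 had an unadjusted p under 0.05. DESeq2's Wald test also called 0 of the 42. The median log2 fold change was 0.18 over the 42, 32 of them positive, and 0.01 over all genes. It became -0.23 when only library totals were used for scaling and -0.01 without Prom1_KO replicate 2. In bulk tissue, the number of dividing cells and the RNA per cell cannot be told apart, for a change in either direction.

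The labels were checked first in these 6 libraries. *Prom1* held 48.7, 49.6 and 53.3 CPM in WT and 49.9, 48.1 and 35.5 CPM in Prom1_KO, a log2 fold change of -0.18 ± 0.16 (SE, edgeR adjusted p = 0.824), in tissue where choroidal and photoreceptor cells also contribute RNA. RPE markers summed over the list moved with the groups, though not all members did. The 12 listed summed to 1743 to 2498 CPM in WT and 1003 to 1107 CPM in Prom1_KO, and *Rpe65*, the visual-cycle isomerase, held 279.8, 204 and 287 CPM in WT and 1.13, 5.97 and 4.48 CPM in Prom1_KO. With *Rpe65*, *Lrat* and *Rdh5* were lower past both limits, while the other 9 did not pass. Of these, *Ttr* had -3.01, *Rlbp1* -2.07, *Mitf* -0.82 and *Otx2* -0.67 on the log2 scale. *Best1* had -0.25, *Krt18* -0.23 and *Pmel* -0.15, and *Dct* (0.37) and *Tyr* (0.31) were positive. Endothelial markers summed to 73.8 to 154 CPM in WT and 43.3 to 69.0 CPM in Prom1_KO, and 3 of 5 lymphocyte markers to 0.423 to 0.757 and 0.893 to 1.32 CPM. Photoreceptor markers varied from 20.7 to 1170 CPM and did not follow the groups. Mitochondrial genes took 64.9% to 69.1% of the counts in WT and 71.0% to 84.2% in Prom1_KO, highest in replicate 3. The part of these in the result was not tested.

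*Top2a*, the highest of the 42, held 14.7, 16.9 and 7.64 CPM in WT and 14.8, 18.7 and 11.1 CPM in Prom1_KO, or 0.19 ± 0.31 (SE) on the log2 scale, with a 95% interval of -0.69 to 1.06. *Spc24* had the largest fold change, at 0.505, 0.964 and 0.612 CPM in WT and 1.26, 0.963 and 1.33 CPM in Prom1_KO, or 0.77 ± 0.32 (SE) on the log2 scale (edgeR adjusted p = 0.595). *Plk1* had the lowest, -0.72 ± 0.87 (SE), at 0.463, 0.964 and 0.35 CPM in WT and 0.427, 0.588 and 0 CPM in Prom1_KO, where the count of 0 allows up to 0.1 CPM. The groups overlap in each of these 3 genes. *Birc5* (1.23, 1.18 and 0.554 and 1.24, 1.53 and 1.43 CPM) and *Kif4* (2.58, 2.71 and 2.10 and 2.72, 4.85 and 2.89 CPM) were the 2 of 42 in which every Prom1_KO library lay above every WT library, where 6.71% of all genes did so, and in 0 did every one lie below, where 7.89% did.

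The 95% interval lay within 1.2 of 0 on the log2 scale for 21 of the 42, among them *Kif20a* (-0.35 to 0.55), *Bub3* (-0.36 to 0.50), *Ttk* (-0.60 to 0.97) and *Aurkb* (-1.03 to 1.04), so that a change of the size of the fold limit was outside the interval there. For the other 21 the interval passed the limit below 0, above 0 or both. At this spread a change of that size on that side could not be seen or set aside. *Cdk1* (-1.59 to 0.66) passed it for a fall, and a rise of that size lay outside its interval. *Cit* (-0.77 to 2.16) passed it for a rise, and a fall of that size lay outside.

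**Figure D5:**
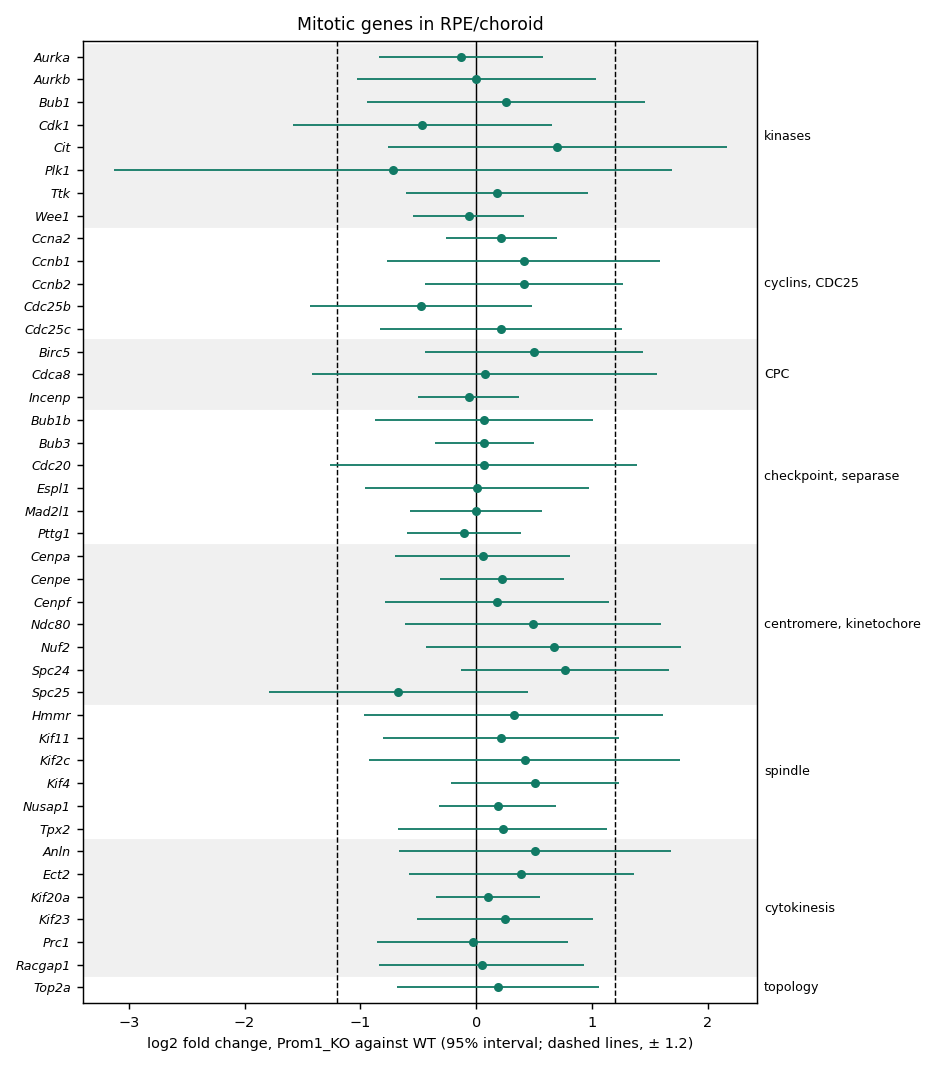
Log2 fold change (x axis) with its 95% interval of the 42 genes in RPE/choroid, Prom1_KO against WT (3 libraries each), with dashed lines at the fold limit on both sides. Every interval, drawn with 4 residual degrees of freedom, spans 0, and *Plk1*, with a count of 0 in 1 library, has the widest.

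Set side by side, with no test since the tables were scaled apart, WT mRPE held more CPM of each of the 42 genes than WT RPE/choroid, by ratios of 2.27 (*Pttg1*) to 45.5 (*Nuf2*) with a median of 13.7. Among 17693 shared genes 86.5% were also higher in WT mRPE, and their median ratio was 3.36. Mitochondrial genes take most counts in tissue, and with them left out the median ratio was 4.62 for the 42, of which 40 stayed above 1, and 1.1 for the shared genes. *Bub1* had a ratio of 37.0, *Top2a* 26.6, *Bub3* 5.14 and *Wee1* 4.44.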

How the data were processed

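RNA-seq was analysed in 15 libraries. Per the labels and the study's methods, the authors trimmed reads with Trim Galore 0.6.7, aligned them to mm39 with STAR and counted reads per gene, and the deposited values used here are these raw counts, in 1 table for mRPE and 1 for RPE/choroid. Deposited normalized tables were not used. The annotation release is not given in the sources used here. Genes reaching 5 counts in 3 or more libraries of a fit were tested with edgeR 4.0.16 (R 4.3.3), TMM factors and a quasi-likelihood test, with Benjamini-Hochberg adjustment over all genes tested. KO22 was fitted over 7 libraries and KO26 over 9, both with the library set as a term, and RPE/choroid over 6. Levels are TMM-scaled CPM, with a pseudocount of 0.5 CPM on the log2 scale. SE was computed as the absolute log2 fold change over the square root of the test's F statistic. Intervals use this SE with 4 residual degrees of freedom, fewer than the test uses, so they are wider than its p-values imply. Limits from a count of 0 are those of 3 counts and cover counting error only. DESeq2 1.42.0 was an alternative. The fits were tested on simulated data. The members and lists were chosen with earlier results of these data known. Named genes were all members, up to 2 genes a direction from each further list with the largest fold change past both limits in KO22, and 6 cell cycle regulators. Marker lists were checked by summed CPM.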

Additional observations from a re-analysis of the deposited data

Results flagged for a closer look

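Some WT values stood apart. In 6 of the 42 genes the WT library of set 8995 lay so far above the other 3 that the gap, as a share of the range, passed Dixon's critical value for 4 samples, at 55.1 CPM for *Cdk1* (next 40.2), 31.0 for *Wee1* (25.4), 22.6 for *Ccnb2* (15.4), 87.1 for *Bub3* (47.7), 28.2 for *Mad2l1* (16.5) and 148 for *Anln* (113). Chance gives about 5% of groups where the 4 samples are alike, the 42 genes share libraries, and in all 6 the library was the same. It is the only WT library of set 8995. WT pairs with this library differed more (chi-square per degree of freedom 59.35 to 79.56) than pairs among the other 3 (4.8 to 7.2). The gap cannot be told apart from a difference between the library sets, so the 5% is not a measure for these 6 genes. No share over all genes was counted.

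The lines differed from each other, by the test of KO22 against KO26, in 22 genes. The log2 difference was 1.91 for *Ttk*, 1.39 for *Kif4*, 1.38 for *Espl1*, 1.37 for *Cdc20* and for *Ccnb2*, 1.32 for *Anln*, 1.24 for *Ccna2* and for *Ccnb1*, 1.23 for *Ect2*, 1.12 for *Cdca8*, 1.11 for *Nusap1*, 1.10 for *Racgap1*, 1.08 for *Aurka* and 1.05 for *Kif23*. It was 0.99 for *Cdc25b*, 0.96 for *Cenpe*, 0.91 for *Bub1b*, 0.86 for *Bub1*, 0.80 for *Hmmr*, 0.76 for *Ndc80* and for *Tpx2*, and 0.62 for *Prc1*. In each of these 22 every KO22 library lay above both KO26 libraries, but they were picked by a test in the same libraries, which favours this. Without that selection it held for 23 of the 42 genes, and for 23.4% of all genes.

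The effect against WT differed between the library sets in 40 of the 42 genes for KO22 and in 2 for KO26, lower in set 8995 in each. The 2 were *Bub1*, with a difference of -0.77, and *Spc25*, with -1.70.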

How the results depend on the processing

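In KO22 against WT the number of genes called higher was 37 to 40 with each library left out and 38 to 41 under the other alternatives, with 0 lower, and the median log2 fold change of 2.16 was 1.98 to 2.50 with each library left out and 2.50 in set 9262 alone. In KO26 against WT the 23 called became 15 with WT and KO26 alone and 6 to 31 with each library left out, where the median was 1.07 to 1.51. Between the lines the 9 called became 22 with no fold limit, 14 at a fold limit of 1, 5 with no library set term, 16 in set 9262 alone and 4 to 18 with each library left out, and the median of 0.76 became 1.14 in set 9262 alone and 0.54 to 1.15 with each library left out. *Wee1*, *Incenp* and *Pttg1* turned to KO22 higher in set 9262 alone, by 0.13, 0.42 and 0.55, and ran from -0.25 to 0.19, from -0.46 to 0.40 and from -0.78 to 0.40 with each library left out. *Pttg1* turned lower in KO26 in set 9262 alone (-0.043) and ran from -0.18 to 1.005 with each library left out, and in KO22 from -0.0049 to 0.54. The set difference of KO22 was called in 38 to 40 genes lower with each library of set 9262 left out, with medians of -1.08 to -1.006, and that of KO26 in 1 to 2 lower and 0 to 1 higher, with medians of -0.06 to 0.04. In RPE/choroid 0 were called either way under every alternative run, and the median of 0.18 became -0.23 with library totals only and -0.0105 to 0.33 with each library left out, where *Anln* ran from -0.058 to 0.81. The median ratio of WT mRPE to WT RPE/choroid became 4.62 without mitochondrial genes. The causes were not tested. The alternatives on the set difference, the ratio and the mitochondrial genes were chosen after seeing the data. No paired analysis was possible because the labels give the groups no shared replicate numbers, and the library set, which groups of mRPE share, was a term of the fits. Set 8995 has 1 library a group, and in RPE/choroid the width of the intervals limits what could be seen.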
